A study of Homo sapiens with 39 samples.

Results

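An HCT116 line that makes a GFP fusion of isoform 2 of HNF4A (hepatocyte nuclear factor 4 alpha) was compared with its parental cells. HCT116 is a human colorectal cancer line. The series holds 39 RNA-seq libraries in 13 groups, and this comparison uses 6 of them: the 3 titled HNF4alpha2-GFP and the 3 titled Empty Control. Per the labels, the host was the Flp-In T-REx form of HCT116, in which the tagged isoform sits at a single insertion site and is switched on by doxycycline. Parental cells had no HNF4A construct and received doxycycline too, at 2.5 µg/ml for 48 h as in the isoform 2 line. Before induction the parental cells grew in blasticidin and zeocin, and the line in blasticidin and hygromycin B. The isoform 2 group was 1 stable line and no group made GFP alone, so effects of the isoform, the GFP tag, the earlier antibiotic and the derivation of the line cannot be told apart. Nothing in the labels says that the 3 libraries of a group came from separate cultures, so p-values measure the spread between libraries, which may be technical.

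HNF4A is a nuclear receptor that binds DNA as a homodimer and activates genes of lipid, bile acid and xenobiotic handling in liver, kidney and gut. Transcripts from its P1 promoter encode forms with an activating N-terminal domain, and those from the P2 promoter lack it. Isoform 2 is the P1 form with a short insertion in the C-terminal F domain, while isoform 1 lacks the insertion. Isoform 8 carries the insertion on the P2 N-terminus and isoform 5 carries it behind the N-terminus of exon 1B. The labels give the isoform number alone; these features are those by which the isoforms are usually defined.

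HNF4A mRNA itself was measured first, in TPM, a length-corrected transcript level scaled to the same total in each library. Summed over its 12 isoform rows, HNF4A stood at 31.9, 30.8 and 31.7 TPM in parental cells, and the isoform 2 libraries had 577.1, 655.0 and 608.6 TPM. Every isoform 2 library was far above every parental one, and the means of 31.5 ± 0.589 and 613.5 ± 39.2 TPM (SD, n = 3) differ 19.5-fold. In the line, 99.9% of the HNF4A signal fell in the row of isoform 2, which was listed at 0 in all parental libraries. The parental signal fell mostly (88.8%) in the row of isoform 12, at 27.8, 27.3 and 28.7 TPM. The 12 rows share most of their sequence, so the division among them is uncertain.

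Colon epithelial markers were abundant as a sum in both groups. The summed level of 10 such markers (KRT8, KRT18, KRT19, EPCAM, CDH1 and others) was 3061 to 3188 TPM in parental libraries. In the line it was 4188 to 4522 TPM. Of 8 tested members 2 rose, VIL1 and LGALS4. Both were under 1 TPM in parental cells. They reached the level for testing, a mean of 1 TPM over all 39 libraries, only through lines in which they were high. Their count is therefore partly set by the filter. None of the 6 tested members with at least 1 TPM in parental cells was called. Of 9 hepatocyte markers none reached the level for testing; they summed to 0.669 to 0.824 TPM in parental libraries and 0.897 to 1.24 TPM in the line, with TTR and APOH at 0 in both. Fibroblast markers summed to 13.6 to 15.6 and 10.6 to 12.2 TPM, blood cell markers to 36.6 to 43.7 and 30.9 to 35.9 TPM, and endothelial markers to 2.64 to 3.20 and 4.39 to 4.78 TPM. None of the 5 tested members of these 3 lists was called. The 6 libraries had between 28135 and 30549 rows above 0 TPM, and no library stood apart from its group.

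Of 15002 genes tested, 353 were higher (2.35%) and 206 lower (1.37%) in the isoform 2 line, 3.73% in all. A gene was called at a limma Benjamini-Hochberg adjusted p under 0.05 and a difference of at least 1 on the log2(TPM + 1) scale, which understates the change of genes at low TPM. More of the rises than of the falls were large: 86 of the risen genes had a difference of at least 2 and 33 of at least 3, against 19 and 4 of the fallen. For 68 risen genes the parental mean was under 1 TPM, and 33 of those reached at least 5 TPM. The summed TPM of the risen genes was 7091 in parental cells and 20342 in the line, and that of the fallen genes 3380 and 1181. All 3 libraries of the line lay above all parental ones for 350 of the risen genes and below them for all 206 of the fallen, arrangements that 23.5% and 41% of all tested genes showed.

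The split between rises and falls depends on the scale. The median difference over all tested genes was -0.09, and 61.5% of them lay below 0. Without the minimum difference, 19.7% of tested genes were higher and 35.6% lower at an adjusted p under 0.05. Scaling the libraries by the median of ratios moved it by 0.11 to 0.02 and gave 442 higher and 156 lower genes (73.9% higher, against 63.1%). A pseudocount of 0.1 in place of 1 gave 434 higher and 428 lower (50.3% higher).

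Counts and medians of the gene lists below are over members that passed the level filter, a mean of 1 TPM over all 39 libraries. Counts of called members stand beside 2.35% of all tested genes called higher and 1.37% called lower. A gene that is low in parental cells passes only through lines in which it is high, so its difference is partly set by the filter. Where a list median is given, the value with no filter is therefore given beside it; over all genes that median was -0.01.

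**Figure D1:**
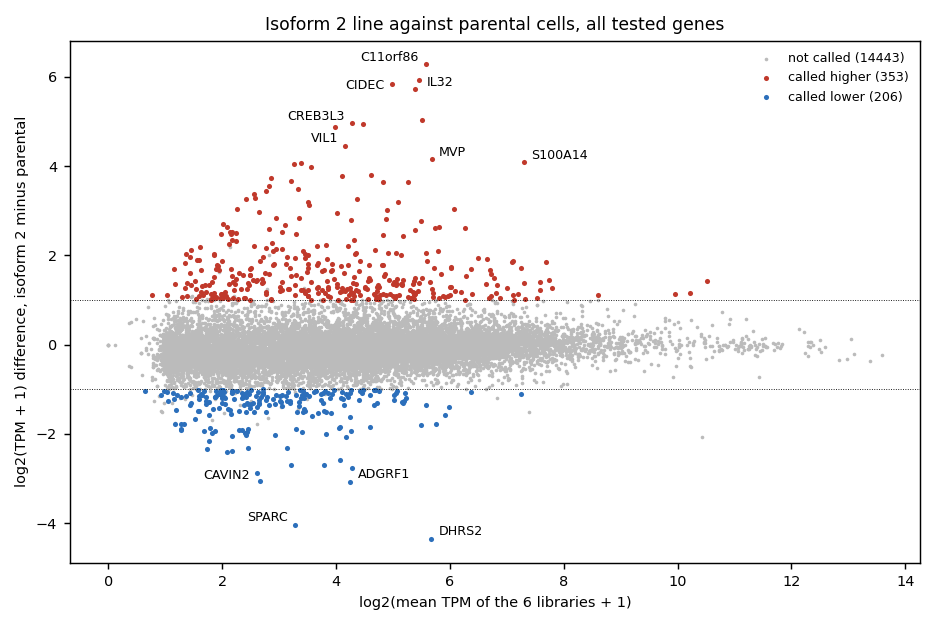
Difference on the log2(TPM + 1) scale (isoform 2 minus parental, 3 libraries each) against the level of each of 15002 tested genes, given as log2 of the mean TPM of the 6 libraries plus 1. Red points are the 353 genes called higher, blue points the 206 called lower, and dotted lines mark the minimum difference of 1; the rises reach 6.28 and the falls -4.35.

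The promoters of the risen genes are shown first because some carry the sequence that HNF4A is known to bind. CAAAGTCCA, a strong form of the HNF4 site, was sought on both strands from 250 bases before to 50 bases after every start that RefSeq lists for a gene (GRCh38.p14), and a gene was counted where any of its starts had a match. It was present in 13 of 246 matched risen genes (5.28%), in 0 of 129 fallen genes and in 33 of 10044 genes that were not called (0.329%), against 0.474% of all genes in the promoter table. Counted by start, these were 13 of 358 windows of risen genes (3.63%) and 35 of 14483 of genes not called (0.242%). With the related forms CAAAGTTCA and CAAAGGTCA the counts were 22 of 246 (8.94%), 4 of 129 (3.1%) and 90 of 10044 (0.896%), against 1.33% of the whole table. TGACTCA, a site of AP-1 factors sought for comparison, was in 26 of 246 risen genes (10.6%), 6 of 129 fallen genes (4.65%) and 454 of 10044 genes not called (4.52%), against 6.01% of the whole table. A match describes these letters and does not show binding.

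The 120 bases before 1 start of each of 4 risen genes are printed 5′ to 3′ on the gene's strand, with CAAAGTCCA or its reverse complement TGGACTTTG in capitals. APOBEC1 (chr12:7665909-7666028, minus strand) has the highest rise among the 13. SDCBP2 (chr20:1313674-1313793, minus strand), CIDEB (chr14:24307978-24308097, minus strand) and MISP (chr19:750992-751111, plus strand) were added after their values were seen, since they are described in the results. The match begins 28, 21, 55 and 112 bases before the start, in that order. The table lists 1 start for APOBEC1 and for MISP, 3 for SDCBP2 and 2 for CIDEB; for the last pair the start shown is the one farthest downstream, and which start the cells used was not measured.
APOBEC1: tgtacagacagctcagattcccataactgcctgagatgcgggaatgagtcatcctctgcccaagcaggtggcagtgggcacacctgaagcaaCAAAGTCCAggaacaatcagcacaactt
SDCBP2: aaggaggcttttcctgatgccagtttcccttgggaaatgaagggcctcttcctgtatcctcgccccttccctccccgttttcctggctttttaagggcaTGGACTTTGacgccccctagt
CIDEB: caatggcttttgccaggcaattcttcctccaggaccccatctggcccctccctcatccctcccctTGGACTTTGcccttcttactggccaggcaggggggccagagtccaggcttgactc
MISP: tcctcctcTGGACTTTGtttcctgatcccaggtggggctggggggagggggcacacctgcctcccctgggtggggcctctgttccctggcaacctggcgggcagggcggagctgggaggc

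The largest rises brought genes from near silence to high levels. Leading rises and falls were taken from genes whose libraries did not overlap between groups, so that separation was set by the choice. C11orf86, an uncharacterised gene (chr11:66975277-66977004), stood at 0.300, 0.139 and 0.213 TPM in parental libraries and at 94.9, 97.1 and 88.4 TPM in the line. The difference was 6.28 ± 0.14 (SE, limma adjusted p = 1.194e-24). IL32, a cytokine (chr16:3065297-3082192), stood at 0.446, 0.524 and 0.304 TPM against 90.6, 78.5 and 87.8 TPM, a difference of 5.93 ± 0.15 (limma adjusted p = 4.33e-23). The parental libraries were all under 1 TPM and the line's libraries all above 78 TPM. APOBEC1, the catalytic subunit of the enzyme that edits APOB mRNA, was listed at 0, 0.121 and 0 TPM in parental libraries and at 28.4, 31.1 and 29.5 TPM in the line, and its difference was 4.88 ± 0.19. CREB3L3, a membrane-bound transcription factor of liver and gut, stood at 0.251, 0.182 and 0.198 TPM against 36.8, 41.7 and 32.0 TPM (4.96 ± 0.16). Both genes were far apart between groups in every library. Counting the isoform 2 line, C11orf86 was called higher than parental cells in 11 of the 12 lines of the series. IL32 and APOBEC1 were called higher in 9 lines and CREB3L3 in 7.

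Other genes of the leading 12 were expressed in parental cells at moderate levels or belonged to other functions. S100A14, a calcium-binding protein of epithelia, stood at 15.3, 17.3 and 17.2 TPM in parental libraries and at 302.6, 292.8 and 294.9 TPM in the line, a difference of 4.08 ± 0.11. MVP, the major vault protein, stood at 4.61, 4.71 and 4.08 TPM against 89.1, 98.8 and 101.4 TPM (4.16 ± 0.12). CYP17A1, the steroid 17-hydroxylase, stood at 0.113, 0.191 and 0.188 TPM against 20.4, 15.4 and 20.1 TPM (4.07 ± 0.17). In all 3 the libraries of the line were above every parental library, as the choice of genes required. MYO15B, a myosin-like gene, had 1.68 ± 0.0923 TPM in parental cells and 87.2 ± 3.40 TPM in the line (SD, n = 3). AQP7P3, listed as an aquaporin pseudogene, also rose (4.94), but its reads may come from near-identical copies.

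**Figure D2:**
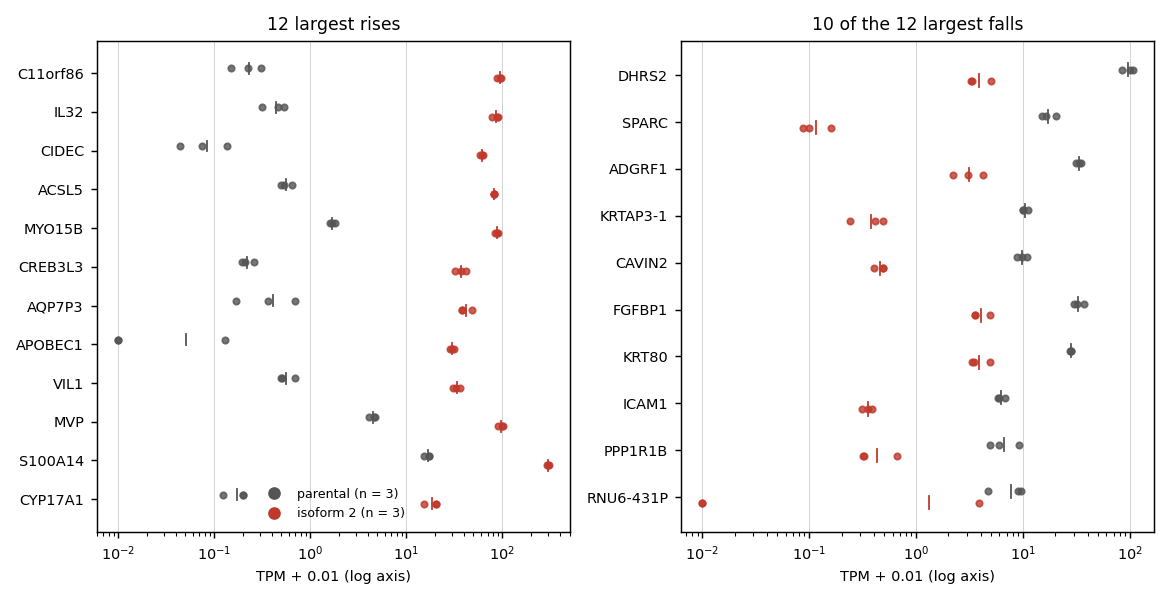
TPM plus 0.01 on a log axis in each of the 3 parental (grey) and 3 isoform 2 (red) libraries for the 12 largest rises and 10 of the 12 largest falls, with a short vertical bar at each group mean. The libraries of the groups do not overlap for any gene shown, since the genes were chosen for this. RNU6-431P has 2 libraries of the line at 0 TPM.

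Fatty acid activation and lipid droplet genes were among the strongest rises, through few members. ACSL5 (chr10:112374018-112428380), which joins long-chain fatty acids to coenzyme A, stood at 0.526, 0.640 and 0.485 TPM in parental libraries and at 81.5, 81.3 and 80.9 TPM in the line. The libraries of the line were nearly equal, and the difference was 5.73 ± 0.11 (limma adjusted p = 2.33e-26). CIDEC (chr3:9866711-9880254), which drives fusion of lipid droplets, stood at 0.0344, 0.125 and 0.0643 TPM against 62.3, 62.0 and 58.2 TPM (5.85 ± 0.13). CIDEB, its relative in lipoprotein lipidation, stood at 2.42, 2.20 and 2.22 TPM against 39.99, 49.1 and 45.1 TPM (3.80 ± 0.18). Neither gene overlapped between groups, which for CIDEC was set by the choice of genes.

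Of 13 tested lipid droplet genes only these CIDE genes passed, with a list median of 0.03 (0.02 over 18 members with no filter) beside -0.09 for all genes. The coat proteins PLIN2 (0.19) and PLIN3 (0.63) and the triglyceride synthases DGAT1 (-0.24) and DGAT2 (0.00) were not called. Of 22 tested genes of fatty acid activation and oxidation 4 rose and 0 fell, with a median of 0.33 (0.27 over the 24 members present with no filter). Beside ACSL5 these were the thiolases ACAA2 (1.498 ± 0.06) and ACAA1 (1.13 ± 0.05) and the carnitine-acylcarnitine carrier SLC25A20 (1.36 ± 0.08). ACAA2 went from 55.2, 56.3 and 56.6 TPM to 150.2, 163.6 and 166.8 TPM, so its absolute gain was larger than that of CIDEC. None of 19 cholesterol synthesis genes was called in either direction (3.73% of all tested genes were), with FDFT1 at 0.10 and FDPS at 0.18. Without the minimum difference 9 were higher and 3 lower at an adjusted p under 0.05, beside 19.7% and 35.6% of all tested genes. Under median-of-ratios scaling 14 were higher and 1 lower, and 1 was called higher.

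Of 13 tested genes of the brush border, the array of actin-filled microvilli on absorptive cells, 6 rose and 0 fell, and the median was 0.75 beside -0.09 for all tested genes. With no filter 8 of 22 members were called higher and the median was 0.28. VIL1 and ANPEP were under 1 TPM in parental cells. VIL1, the actin-bundling protein villin (chr2:218419092-218453295), stood at 0.482, 0.683 and 0.497 TPM in parental libraries and at 30.7, 32.5 and 36.6 TPM in the line (4.46 ± 0.17). MISP, an actin-bundling protein, stood at 10.4, 10.1 and 11.1 TPM against 76.3, 77.3 and 79.9 TPM (2.78 ± 0.09). Both were apart in all libraries, which for VIL1 was set by the choice of genes. ANPEP, an apical aminopeptidase, rose by 2.65 ± 0.10, the scaffold SLC9A3R1 by 1.85 ± 0.08, the scaffold USH1C by 1.30 and EPS8L2 by 1.15. The other 7 tested members, among them EZR (0.17), PLS1 (0.01) and DPP4 (-0.35), were not called. A further 9 listed members were too low to test. Of those, MYO1A, the brush border myosin, had a mean of 0.0700 TPM in parental cells and 3.46 TPM in the line, and EPS8L3 was listed at 0 TPM in parental cells with a mean of 2.10 TPM in the line. Both were picked as members that were higher. With no filter and no minimum, 13 of 22 members were higher and 3 lower at a limma adjusted p under 0.05. Among the 13 tested members these counts were 10 and 1.

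Of 21 listed HNF4A targets of liver and gut, 5 were expressed enough to test, and 4 of these rose. VIL1, LGALS4 and APOA1 were under 1 TPM in parental cells and passed the filter through lines in which they were high, so the count of 4 in 5 is partly set by the filter. With no filter 6 of 20 targets were called higher, none lower, and the median was 0.00. LGALS4, a galectin of the gut epithelium, stood at 0.180, 0.0739 and 0.158 TPM in parental libraries and at 8.97, 12.8 and 12.8 TPM in the line (3.44 ± 0.17). APOA1, the main protein of high-density lipoprotein, stood at 0.397, 0.115 and 0.309 TPM against 3.46, 3.98 and 3.79 TPM (1.90 ± 0.12). F10, coagulation factor X, went from 9.59, 8.60 and 9.58 TPM to 24.6, 30.5 and 30.3 TPM (1.52 ± 0.14). All were apart in every library, and the fourth was VIL1. MTTP, which loads lipid onto lipoproteins, was not called (-0.32). Among the 16 untested targets TM4SF5 was listed at 0 TPM in all parental libraries and at 3.15, 3.01 and 1.98 TPM in the line, whereas APOH, TTR and FABP1 were listed at 0 in all 6 libraries.

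Of 18 tested transporters of gut and kidney epithelium 7 rose and 0 fell, with a median of 0.59. With no filter 7 of 36 members were called higher and the median was 0.04. SLC7A7, a subunit of a basolateral amino acid exchanger, went from 0.415, 0.295 and 0.203 TPM to 6.23, 6.47 and 6.88 TPM (2.53 ± 0.13). ABCG2, an efflux pump, went from 2.10, 2.19 and 1.85 TPM to 12.8, 12.0 and 12.7 TPM (2.15 ± 0.11). Both were apart in every library. SLC22A18 (1.67), the bile salt and conjugate pump ABCC2 (1.49), ABCC6 (1.41), SLC35D1 (1.29) and the glucose carrier SLC2A1 (1.07) completed the group. Of 15 tested drug and steroid enzymes 4 rose and 1 fell: the sulfotransferase SULT2B1 (3.02 ± 0.15), CYP1A1 (1.80 ± 0.15), ALDH3A1 (1.14 ± 0.09) and AKR1C3 (1.09) rose and DHRS2 fell. With no filter 4 of 41 members were called higher and 2 lower, and the median was -0.009.

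The most abundant risen genes included genes of cell architecture and metabolism. ANXA2, a membrane-binding annexin, went from 730.7, 746.0 and 717.9 TPM to 1572, 1673 and 1690 TPM (1.17 ± 0.05). LDHA, the lactate dehydrogenase A subunit, went from 638.7, 627.2 and 610.0 TPM to 1339, 1421 and 1350 TPM (1.13 ± 0.05). AKAP12, a kinase anchor, rose by 1.11 ± 0.11. These abundant genes rose about as much as the minimum that counts as a call. RPL21 was also called higher (1.42 ± 0.39), at 821.4, 905.6 and 592.6 TPM against 2389, 2814 and 1274 TPM. Its copy RPL21P16 moved the other way, at 1893, 1887 and 2243 TPM against 411.0, 158.8 and 1647 TPM, and the sum of both was 2781 ± 61.6 TPM in parental cells and 2898 ± 88.8 TPM in the line (SD, n = 3). The call for RPL21 is therefore reported as uncertain.

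The falls were led by DHRS2, SPARC and ADGRF1. DHRS2, a short-chain dehydrogenase (chr14:23630115-23645639), stood at 83.9, 99.3 and 106.1 TPM in parental libraries and at 4.97, 3.28 and 3.22 TPM in the line, a difference of -4.35 ± 0.41 (limma adjusted p = 2.201e-10). SPARC, a matricellular protein that binds collagen (chr5:151661096-151687165), stood at 14.97, 16.3 and 20.4 TPM against 0.149, 0.0765 and 0.0903 TPM (-4.03 ± 0.34). Each was low in every library of the line, and SPARC fell to near 0. ADGRF1, an adhesion receptor, stood at 31.2, 34.4 and 33.3 TPM against 4.18, 3.02 and 2.19 TPM (-3.07 ± 0.14). FGFBP1, a secreted carrier of fibroblast growth factors, stood at 31.5, 36.9 and 30.0 TPM against 4.92, 3.56 and 3.53 TPM (-2.76 ± 0.22). KRTAP3-1, a keratin-associated protein, stood at 11.1, 9.91 and 9.99 TPM against 0.476, 0.230 and 0.402 TPM (-3.05 ± 0.20). None of these falls had overlapping libraries, as the choice of genes required. Among the other leading falls, the keratin KRT80 was at -2.58 and PPP1R1B at -2.39. RNU6-431P (-2.31 ± 0.63) is a copy of a short RNA, and its values are uncertain.

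Matrix and mesenchymal genes were lower where they were called. Of 15 tested members 4 fell and none rose, with a median of -0.29 (-0.05 over 24 members with no filter). With SPARC these were the collagen COL12A1 (-1.57 ± 0.13), the matricellular THBS1 (-1.51 ± 0.11) and the filament protein VIM (-1.10 ± 0.22). VIM lost its call under median-of-ratios scaling (-0.99) and without isoform 2 replicate 3 (-0.96). SNAI2 (0.59) and FN1 (-0.24) were not called. Of 9 caveola genes 1 fell: CAVIN2, a coat protein of caveolae, went from 9.67, 8.70 and 10.8 TPM to 0.476, 0.391 and 0.483 TPM (-2.88 ± 0.17). Among 23 genes of epithelial adhesion and tight junctions 1 rose, the junction scaffold TJP3 (1.34 ± 0.13). That is near the 2.35% of all tested genes called higher. CDH1 (0.39) and EPCAM (0.00) were not called.

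Among interferon genes more were called lower than higher, and NF-kB genes gave a mixed picture. Of 22 tested interferon and antiviral genes 4 fell and none rose, with a median of -0.36 (-0.28 over 35 members with no filter). OAS3, a sensor that makes oligoadenylates, went from 26.9, 30.3 and 30.6 TPM to 7.35, 7.49 and 6.07 TPM (-1.93 ± 0.09). IFI6 fell by 1.61, IFITM1 by 1.43 and the transcription factor IRF1 by 1.04. IRF1 lost its call under median-of-ratios scaling (-0.93) and without parental replicate 2 (-0.95) or isoform 2 replicate 3 (-0.93). ISG15 (0.89) and ISG20 (0.94) were above 0 without a call, and under median-of-ratios scaling 2 genes of the list were called higher and 3 lower. Of 11 NF-kB and chemokine genes IL32 rose and the adhesion molecule ICAM1 fell, from 5.89, 6.68 and 5.80 TPM to 0.377, 0.302 and 0.342 TPM (-2.41 ± 0.17). With no filter 2 of 24 members of that list were called higher and 1 lower.

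Genes of proliferation were lower by less than the minimum for a call. None of 30 S phase genes and none of 28 mitosis genes was called, while 28 and 26 of them had an adjusted p under 0.05 in the lower direction, as did 35.6% of all tested genes. The medians were -0.53 and -0.42, with and without the filter, and -0.41 and -0.30 after median-of-ratios scaling, where 25 and 25 had an adjusted p under 0.05 in that direction. PCNA, the sliding clamp of replication, went from 570.0, 581.8 and 549.0 TPM to 397.0, 394.7 and 362.6 TPM (-0.56 ± 0.07). UBE2C, an enzyme of mitotic exit, went from 318.3, 337.0 and 314.5 TPM to 202.3, 218.6 and 201.3 TPM (-0.64 ± 0.08). CDKN1A, the p21 inhibitor of cyclin-dependent kinases, was the 1 called gene of 22 tested p53 targets and rose from 106.2, 105.3 and 100.1 TPM to 259.6, 295.9 and 271.3 TPM (1.40 ± 0.09). MDM2 (0.17), BAX (0.00) and FAS (-0.61) were not called. A count of 1 in 22 is near the 3.73% of all tested genes called.

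Of 16 Wnt/beta-catenin targets BAMBI (-1.18 ± 0.09) and EPHB2 (-1.10 ± 0.08) fell and none rose, and 10 were lower at an adjusted p under 0.05 without the minimum, beside 35.6% of all tested genes; EPHB2 lost its call under scaling (-0.99), and AXIN2 (-0.25) and MYC (-0.38) were not called. Of 11 EGF family genes the ligands AREG (1.05 ± 0.10) and EREG (1.01 ± 0.10) rose, and 4 were called higher under median-of-ratios scaling or a pseudocount of 0.1. AREG and EREG lie at the minimum: AREG had 0.99 and EREG 0.98 without parental replicate 3, and EREG had 0.94 without isoform 2 replicate 2. DUSP6, a phosphatase of ERK, fell from 83.3, 86.7 and 96.8 TPM to 29.2, 31.4 and 27.3 TPM (-1.57 ± 0.10), and the surface protein CD24 from 93.4, 95.5 and 82.9 TPM to 31.3, 37.5 and 32.9 TPM (-1.39 ± 0.09). The transcription factor SOX4 (-1.10) and TMSB15A (-1.05) fell too, and both lost the call under scaling, at -0.97 and -0.93; TMSB15A also lost it without isoform 2 replicate 3 (-0.99). None of 18 lineage transcription factors (HES1 0.25, TCF7L2 -0.56), 21 genes of the ATF4 and unfolded protein response (CALR -0.19, HSP90B1 -0.33) or 45 ribosomal protein genes was called. Of all tested genes 3.73% were called, so such counts are near that share.

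**Figure D3:**
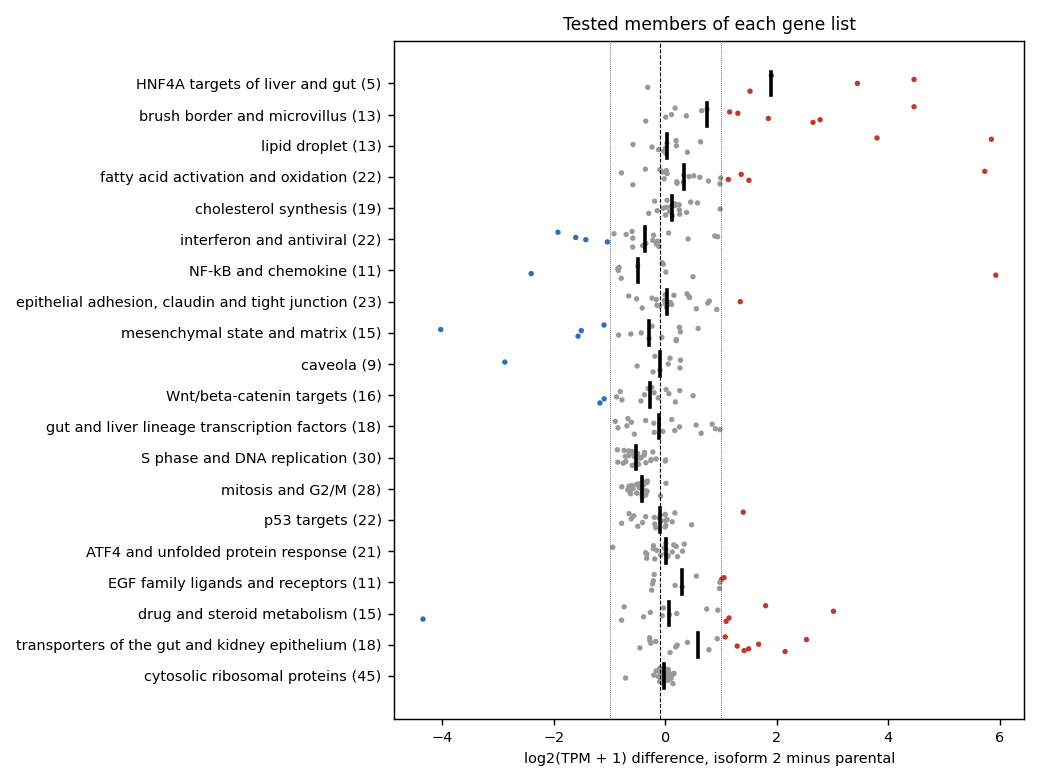
Difference on the log2(TPM + 1) scale (isoform 2 minus parental) of each tested member of 20 gene lists, with the number tested in brackets. Red points were called higher, blue points lower and grey points neither; black bars are medians of the tested members, the dashed line is the median of all tested genes (-0.09) and dotted lines mark differences of 1.

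Compared directly, the isoform 2 and isoform 1 lines differed by the minimum of 1 or more in few genes. In isoform 2, 16 were higher (0.107%) and 36 lower (0.24%), 0.347% in all. Without the minimum, 1582 were higher and 1045 lower at a limma adjusted p under 0.05. FMN1, a formin that builds actin filaments, had 1.23 ± 0.138 TPM in parental cells, 19.5 ± 0.919 in isoform 2 and 3.35 ± 0.416 in isoform 1 (SD, n = 3 each), and isoform 2 was above isoform 1 by 2.24 ± 0.11 (limma adjusted p = 5.171e-15). F3, tissue factor, stood at 22.1, 21.1 and 21.5 TPM in isoform 2 against 5.84 ± 0.347 TPM in isoform 1 (1.72 ± 0.11). ARL14EPL (1.58) and ZBED2 (1.43) were also above. These 4 rose against the parental cells in isoform 2.

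Lower in isoform 2 than in isoform 1 were KRTAP3-1 (-3.27 ± 0.20), ICAM1 (-1.98 ± 0.17), the oligoadenylate synthase OAS1 (-1.90 ± 0.11), KRT7 (-1.59 ± 0.12), the kinase TNIK (-1.56 ± 0.07) and ADGRF1 (-1.47 ± 0.14). KRTAP3-1 was at 0.369 ± 0.126 TPM in isoform 2, 12.3 ± 2.29 in isoform 1 and 10.3 ± 0.692 in parental cells. ICAM1 was at 0.340 ± 0.0376, 4.29 ± 0.287 and 6.12 ± 0.486 TPM in the same order. Isoform 1, like isoform 2, is represented by 1 line, so a difference between isoforms and one between lines cannot be told apart. CHAC1, an enzyme that degrades glutathione, was below isoform 1 by 2.25 ± 0.24 and was not called against parental cells (0.19); its isoform 1 level was spread widely, at 34.8 ± 18.4 TPM. AREG and EREG, which rose in both lines, were lower in isoform 2 by 1.08 and 1.15. For the genes with the largest rises no such difference was called: C11orf86 differed by -0.07, CREB3L3 by -0.04 and VIL1 by -0.35, while IL32 (-0.69), CIDEC (-0.57) and S100A14 (-0.45) had an adjusted p under 0.05 below the minimum difference. SULT1A3, SNORA2A, TRS-GCT5-1 and RNU6-431P were called in this contrast and share sequence with copies, so their values are uncertain.

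Against isoform 8, 158 genes were higher (1.05%) and 73 lower (0.487%) in isoform 2, 1.54% in all. CIDEB was at 44.7 ± 4.56 TPM in isoform 2 and 3.39 ± 0.573 in isoform 8, against 2.28 ± 0.123 in parental cells, and isoform 2 was above isoform 8 by 3.38 ± 0.18. SDCBP2, a syntenin-like scaffold, was at 21.1 ± 2.30, 1.33 ± 0.530 and 0.390 ± 0.141 TPM in the same order (3.27 ± 0.19). MVP (2.95), CREB3L3 (2.89) and VIL1 (2.77) were also above isoform 8. For ACSL5 (0.84) and S100A14 (0.58) the isoform 2 line was higher by less than the minimum. F10 was at 5.37 ± 0.882 TPM in isoform 8, below the 9.25 ± 0.569 of parental cells, and isoform 2 was above isoform 8 by 2.21. CYP11A1 was at 6.26 ± 0.893 TPM in isoform 8 and at 0.0757 ± 0.0164 in isoform 2, a difference of -2.75 ± 0.10, and the gene was not called in isoform 2 against parental cells (-0.01).

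The line labelled isoform 5 carries a doubt about its name. In its table, and in that of isoform 4, the row names HNF4A4 and HNF4A5 stand in exchanged places compared with the parental table. By its own row names its HNF4A signal (851.0 TPM) is in the row of isoform 5, and by the row order of the parental table in that of isoform 4, so the lines labelled isoforms 4 and 5 may be exchanged. Against the line labelled isoform 5, 303 genes were higher (2.02%) and 301 lower (2.01%) in isoform 2, 4.03% in all. HNF4A mRNA of that line was above the 613.5 TPM of isoform 2, and no contrast between lines took the HNF4A level into account. Of the 353 risen genes 263 were above isoform 5 and none below, and of the 206 fallen genes 156 were below it and none above. DHRS2 was at 199.7 ± 7.602 TPM in the line labelled isoform 5, and at 49.0 ± 4.89 TPM in that labelled isoform 4, beside the 96.4 ± 11.4 of parental cells and the 3.82 ± 0.996 of isoform 2. The directions against isoforms 1 and 8 were: of the risen genes 11 were above and 3 below isoform 1, and 120 above and 2 below isoform 8; of the fallen genes 19 were below isoform 1 and 49 below isoform 8, with none above. All these contrasts share the isoform 2 libraries, and comparisons of different lines with parental cells share the parental libraries, so values of lines against parental cells stand side by side and no test of their overlap is given.

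**Figure D4:**
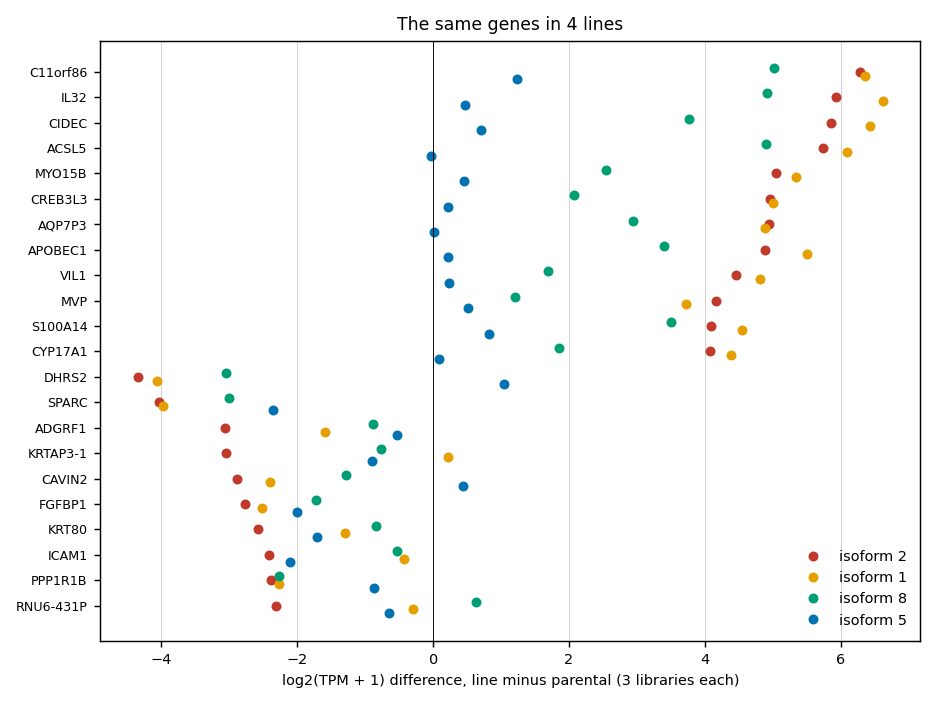
Difference on the log2(TPM + 1) scale against the same 3 parental libraries for the 12 largest rises and 10 of the 12 largest falls of isoform 2, in isoforms 2 (red), 1 (orange), 8 (green) and 5 (blue), 3 libraries each. Isoforms 1 and 2 lie close together for the rises, isoform 8 lies lower and isoform 5 near 0 for most of them. Among the falls shown, KRTAP3-1, RNU6-431P, ICAM1, ADGRF1 and KRT80 were called lower in isoform 2 than in isoform 1.

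In the authors' deposited table for isoform 2, 342 of the 353 risen genes and 192 of the 206 fallen genes passed at 0.05 with the same sign, and none had the opposite sign. Of the 23636 rows with an adjusted p-value there, 9227 passed at 0.05 in either direction. Both comparisons use the same libraries, and the genes were chosen here for a large difference. The match is therefore partly set in advance and is no independent support. The authors' deposited table gives C11orf86 a log2 fold change of 7.80 and SPARC one of -6.31, larger than the 6.28 and -4.03 found here on the log2(TPM + 1) scale.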

How the data were processed

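RNA-seq of poly(A)-enriched RNA was made with a directional kit, per the labels' protocols. The authors deposited TPM per library and gene name in 13 tables. The submitters' processing notes list Trimmomatic 0.36, FastQC 0.11.5, kallisto 0.44.0, DESeq2 1.22.2 and GRCh38.p12, without roles. The authors' isoform 2 table also gives a mean of normalised counts (a signal), a log2 fold change and an adjusted p-value; these entered no fit. The authors' mean normalised counts summed to 54533584 over the rows of that table, and the depth of single libraries is unknown, so no counting interval is given.

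Rows HNF4A1 to HNF4A12 were left out, leaving 45434. The 15002 genes averaging 1 TPM or more across all 39 libraries were fitted on log2(TPM + 1) with limma 3.58.1 in R 4.3.3 (lmFit, contrasts.fit, eBayes with trend), with 13 group coefficients; all 39 libraries set the spread, and its median residual SD was 0.09. Direct contrasts with isoforms 1, 8 and 5 came from the same fit. On simulated data for isoform 2 against parental cells (15002 genes, 200 changed by 1.5 on the log2 scale) the fit called 200 of the changed genes and 0 others. The simulated noise was normal and independent, and genes low in parental cells were not among those changed. The change lay above the minimum difference, so this checks the code and not the error rate in the real libraries. Gene coordinates are GENCODE v29 (GRCh38).

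Named were the 12 largest rises and 12 largest falls with non-overlapping libraries and at least 5 TPM in the higher group, the 5 most abundant of each direction, up to 4 called members of each list (or the 2 most abundant where none was called), the 5 largest of each direction in each direct contrast, and the 5 highest genes under the filter; other genes were chosen after their values were seen. A few genes that the rule names are not reported here. The members and lists were chosen with earlier results of these data known. Alternatives were other pseudocounts, filters, scaling, sample sets, a replicate block and leaving out each library.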

Additional observations from a re-analysis of the deposited data

Results flagged for a closer look

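Isoform 2 was compared directly with isoforms 1, 8 and 5. For 6 genes it was called lower than parental cells while isoform 8 or 5 was called higher, and the direct difference between the lines was called too (limma adjusted p at most 2.94e-10). RERG, a Ras-like protein, was at 0.0310 ± 0.0217 TPM in isoform 2, 1.10 ± 0.105 in parental cells, 3.32 ± 0.386 in isoform 8 and 7.63 ± 0.177 in the line labelled isoform 5 (SD, n = 3 each). The lines labelled isoforms 4 and 5 may be exchanged, since their HNF4A row names stand in exchanged places; RERG was at 0.187 ± 0.0292 TPM in that labelled isoform 4. Isoform 2 was below isoform 8 by -2.06 and below isoform 5 by -3.07 on the log2(TPM + 1) scale. TMEM132D-AS1, an antisense RNA, was at 0.229 ± 0.0835 TPM in isoform 2, 4.57 ± 1.35 in parental cells, 15.7 ± 2.69 in isoform 8 and 12.0 ± 1.81 in isoform 5, with differences of -3.75 and -3.40. Its mean was below parental cells in every line but those labelled isoforms 5 and 8. Whether its reads were counted by strand is not given in the sources used here.

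RPGRIP1 was at 0.374 ± 0.0831 TPM in isoform 2, 3.37 ± 0.259 in parental cells and 10.6 ± 0.642 in isoform 8 (-3.08). FGF13 was at 0.204 ± 0.0167, 2.34 ± 0.0397 and 7.85 ± 0.832 TPM in the same order (-2.87). Means of RPGRIP1 and FGF13 were below parental cells in every line but those of isoforms 6 and 8. In isoform 1 they were at 0.403 ± 0.111 and 0.735 ± 0.098 TPM. In the line labelled isoform 5 they were at 0.437 ± 0.0968 and 0.807 ± 0.0683 TPM. In isoform 6 they were at 13.3 ± 0.436 and 8.34 ± 0.28 TPM. The embryonic globin HBE1 was at 1.20 ± 0.398 TPM in isoform 2, 7.68 ± 2.05 in parental cells and 26.7 ± 0.535 in isoform 5 (-3.67), and at 43.8 ± 1.25 TPM in the line labelled isoform 4. The olfactory receptor gene OR51B5 was at 1.26 ± 0.404, 4.03 ± 0.185 and 19.3 ± 1.82 TPM in the same order (-3.18), and at 31.3 ± 3.08 TPM in the line labelled isoform 4. Means of HBE1 and OR51B5 were above parental cells only in the lines labelled isoforms 4, 5 and 12. Of the lines not compared directly, the one labelled isoform 4 had 15.6 ± 1.11 TPM of ICAM1 and isoform 6 had 30.6 ± 2.58 TPM of VIM. Each was called higher than parental cells there and lower in isoform 2, and the difference between those lines was not tested. In the line labelled isoform 5, ICAM1 was at 0.651 ± 0.164 TPM and was called lower than parental cells, as in isoform 2. Its difference between isoform 2 and that line was not called (-0.30).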

How the results depend on the processing

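Against parental cells 559 genes were called; without the minimum difference there were 8293, with a pseudocount of 0.1 862, and with a mean of at least 5 TPM 354, where fewer genes were tested. For isoform 2 against isoform 1 (52 called) the counts were 2627 without the minimum and 91 with a pseudocount of 0.1. For isoform 2 against isoform 8 (231 called) they were 6636, 387 and, at 5 TPM or more, 140. For isoform 2 against isoform 5 (604 called) they were 8086 without the minimum and 365 at 5 TPM or more. Leaving out 1 library gave 553 to 581 genes against parental cells, 45 to 51 against isoform 1, 220 to 237 against isoform 8 and 593 to 612 against isoform 5. Of 72 named genes called against parental cells, 65 lost no call in the alternatives that tested them: 47 were tested in all 14, and 18 fell under the filter in some, APOA1 in 4 of them. The other 7 are given with their values in the report.

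Among the named genes, signs against parental cells turned under these alternatives only where the gene was not called against them. Under median-of-ratios scaling RPLP1 went to 0.066, RPS18 to 0.018 and HBA1 to 0.026, and the median of the ribosomal protein genes from -0.02 to 0.10. Leaving out 1 library at a time, HBA1 ranged from -0.22 to 0.057 and turned without parental replicate 1. SULT1A3 ranged from -0.88 to 0.061 and CYP11A1 from -0.038 to 0.011, and both turned without parental replicate 3. SNORA2A ranged from -0.999 to 0.19 and turned without parental replicate 1 (0.19) and without isoform 2 replicates 2 (0.15) or 3 (0.12). The cause of these turns was not tested.

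The replicate numbers are not stated to mark a shared batch. Same-numbered libraries of the parental and isoform 2 groups had correlations of deviations of 0.05, 0.04 and 0.07, each the highest for its library, which is a hint from the data and not from the design. A fit with the number as a replicate block over the 33 numbered libraries called 558 genes, and with the 6 compared libraries alone 587, against 578 for those 6 without the block. No block could be fitted for the isoform 5 contrast, since those columns carry no number.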

Other observations

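Of the genes too low on average over the 39 libraries to be tested, 301 had a mean of at least 1 TPM in the isoform 2 line and 443 in parental cells. The highest in the line was KRTAP4-16, a keratin-associated protein, at 4.00, 2.69 and 5.47 TPM in the line and at 0.399, 0.583 and 0.224 TPM in parental libraries. The intergenic RNA LINC01204 was at 4.07, 4.15 and 3.07 TPM against 0.698, 0.438 and 0.471 TPM. PLA2G12B, a secreted phospholipase-like protein of liver and gut, was at 3.06, 3.47 and 2.69 TPM against 0, 0.0605 and 0 TPM. In each the libraries of the line were all above the parental ones. These genes were chosen as the highest in the line, so that separation is partly set by the choice. LOC105379257 had a mean of 2.90 TPM against 0.266 TPM.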
